A study of Mus musculus with 2 samples.

Results

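The miR-17-92 cluster is a set of 6 miRNA hairpins, Mir17, Mir18, Mir19a, Mir20a, Mir19b-1 and Mir92-1, cut from 1 long noncoding transcript, Mir17hg. It was described here by small RNA sequencing of the neural tube of mouse embryos of strain B6NCrl at embryonic day 11.5. The members were taken by gene symbol and position, and all 6 were found among the 1973 miRNA genes counted. The series has 1 group of 2 biological replicates. Replicate 1 is a pool of 109 embryos and replicate 2 a pool of 88, male and female mixed, with no mutation, treatment or second tissue. Levels are reads on the gene's own strand per 1000000 such reads on all miRNA genes (CPM).

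In an animal cell, a cluster of this kind is transcribed as a single primary RNA, from which the Drosha complex releases each hairpin and Dicer cuts out a duplex of about the length of a mature miRNA. A mature miRNA finds its target mRNAs mainly through its seed, the bases near its 5′ end, so miRNAs with the same seed share many targets. The miR-17-92 cluster is activated by Myc and E2F factors, favours proliferation and survival, and in mice acts in the growth of lung, heart, B cells and neural progenitors and in the survival of spinal motor neurons. A known target is Bcl2l11, a promoter of cell death.

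The cluster holds 4 seeds, and its mature sequences are shown because the counts differ between seeds. They come from RefSeq (build GRCm38.p6), are written 5′ to 3′, and have the seed (bases 2 to 8) in capitals. For each hairpin, the arm usually taken as the functional strand is printed.
miR-17-5p of Mir17: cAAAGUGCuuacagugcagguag
miR-20a-5p of Mir20a: uAAAGUGCuuauagugcagguag
miR-18a-5p of Mir18: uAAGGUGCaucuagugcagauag
miR-19a-3p of Mir19a: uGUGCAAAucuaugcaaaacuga
miR-19b-3p of Mir19b-1: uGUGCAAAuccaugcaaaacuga
miR-92a-3p of Mir92-1: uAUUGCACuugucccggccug
Mir17 and Mir20a share a seed, as do Mir19a and Mir19b-1, while Mir18 and Mir92-1 each have their own. Aligned at their first base, miR-17-5p and miR-20a-5p are identical at 21 of 23 bases and miR-19a-3p and miR-19b-3p at 22 of 23. Counted from 1 at the 5′ end, with the base of miR-19a-3p first, that pair differs by U11C. miR-18a-5p is identical to miR-20a-5p at 19 of 23 bases, but its seed differs from theirs.

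By GENCODE M21 (build GRCm38, which is mm10), Mir17hg lies on the plus strand of chromosome 14 from 115042879 to 115046727 and has 2 exons. All 6 hairpins lie in exon 2, within 836 nt. Mir17 (ENSMUSG00000065508.1) comes first, from 115043671 to 115043754. Mir18 (ENSMUSG00000065403.1) follows from 115043851 to 115043946, Mir19a (ENSMUSG00000065416.1) from 115044000 to 115044081 and Mir20a (ENSMUSG00000065442.1) from 115044157 to 115044263. Mir19b-1 (ENSMUSG00000076256.1) runs from 115044305 to 115044391, and Mir92-1 (ENSMUSG00000076062.1) ends the array from 115044427 to 115044506. The gaps between neighbouring hairpins range from 35 nt, before Mir92-1, to 96 nt, after Mir17. The hairpins are 80 to 107 nt long with a GC content of 43.7% to 47.5%. Their predicted folding energies run from -38.7 kcal/mol for Mir19a to -29.2 kcal/mol for Mir18.

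The libraries held 3708662 own-strand counts in replicate 1 and 4055883 in replicate 2, or 43.5% and 53.0% of all reads. A read that aligned at more than 1 place entered no gene's count, and such reads made up 25.2% of replicate 1 and 27.3% of replicate 2. They outnumbered the counts of the whole cluster 7.56-fold in replicate 1 and 7.00-fold in replicate 2, and the miRNAs they came from were not analysed here. As a check of the tissue, 10 of 11 neural marker genes had a row used here and held 0.812% ± 0.0852 of counts (SD, n = 2). Among them the neuronal Mir124a genes lay between 1.23 and 11.9 CPM and the progenitor genes Mir9-2 and Mir9-3 at 2.16 and 199.8 CPM in replicate 1, all of them families with several near-identical copies. Most of the list's counts came from Mir92b, which is also a gene of the miR-92 seed, at 5250 and 4708 CPM in replicates 1 and 2, Mir137 at 2169 and 1761 CPM and Mir153 at 864.5 and 700.5 CPM. Markers of other cells were present too. The endothelial Mir126a held 2.36% ± 0.187 of counts, 3 mesenchymal genes 1.59% ± 0.358 and the liver gene Mir122 0.000785%. Of 6 muscle genes listed, 5 had a row used here and held 0.116% ± 0.0369, without Mir1a-2. Of 4 blood genes, 3 had one and held 0.0672% ± 0.0161, without Mir142. Among the muscle genes Mir206 was at 1358 CPM in replicate 1 and 761 CPM in replicate 2, Mir208b at 60.1 and 136.3 CPM and Mir1a-1 at 0.27 and 0 CPM, while Mir133a-1 and Mir133a-2 were at 0 in both. Their part in the levels of the cluster was not tested, and in such bulk tissue fewer cells of a type and less RNA per cell cannot be told apart.

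The cluster as a whole took 7.68% of own-strand counts in replicate 1 (95% Wilson interval 7.65 to 7.71) and 7.36% in replicate 2 (7.33 to 7.38), or 7.52% ± 0.230 (SD, n = 2). Intervals cover counting error only, since reads copied by PCR are not independent molecules. The counts of the 6 genes were far from equal, although the genes are parts of the same transcript. They ranged from 23.7 CPM for Mir19b-1 to 44749 CPM for Mir17, as the map of hairpins and levels shows. How evenly the libraries captured different miRNA sequences was not tested. Folds between genes are therefore folds of counts, which need not equal folds of molecules in the tissue.

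**Figure D1:**
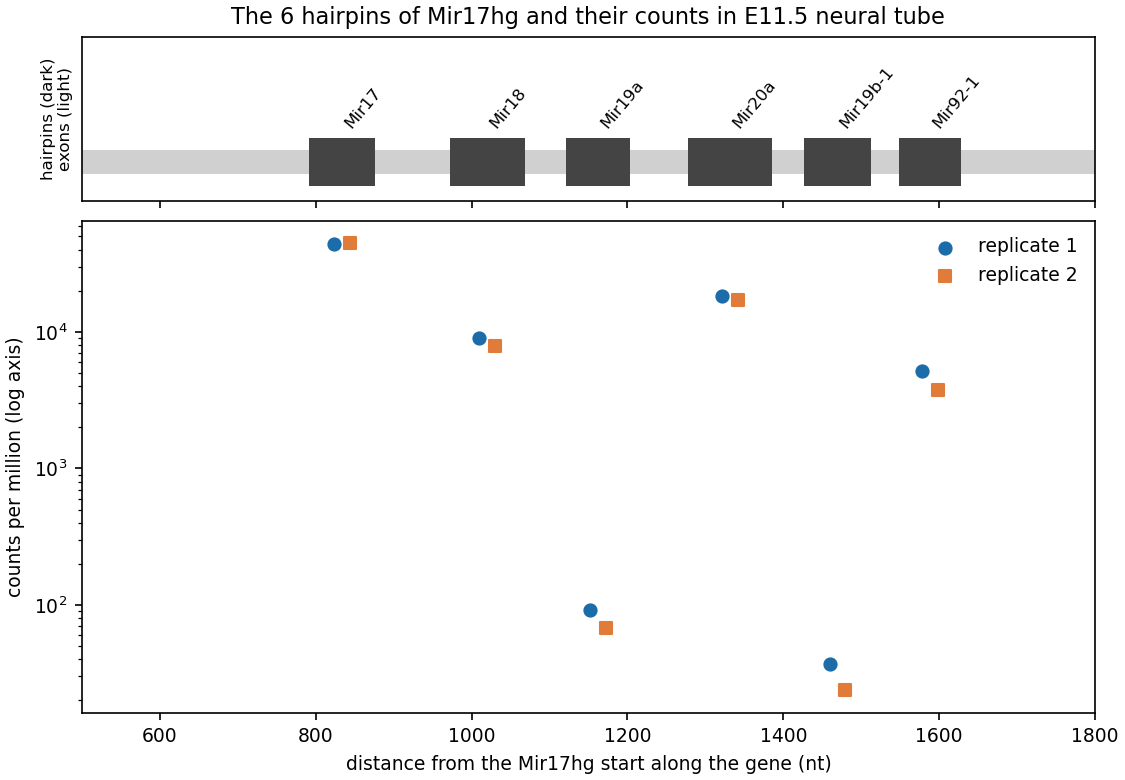
The upper panel maps the hairpins (dark) on exon 2 of Mir17hg (light) by distance from the start of the gene in nt. The lower panel gives each gene's CPM on a log axis, with replicate 1 (circles) and replicate 2 (squares) drawn side by side. Mir17, first in the array, is highest, and the 2 genes of the miR-19 seed lie at or below 91.9 CPM between neighbours at or above 3721 CPM.

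Mir17, which encodes the miRNA that the family is named for, had 163398 counts in replicate 1 and 181497 in replicate 2. This is 44058 and 44749 CPM, or 44404 ± 488 CPM (SD, n = 2), and rank 5 among all genes in both libraries. Mir17 alone made up 57.4% of the cluster's counts in replicate 1 (95% Wilson interval 57.2 to 57.5) and 60.8% in replicate 2 (60.7 to 61.0). Mir20a, with the same seed, had 68316 and 69584 counts in replicates 1 and 2, which is 18421 and 17156 CPM. It formed 24.0% and 23.3% of the cluster. Mir17 exceeded Mir20a 2.39-fold in replicate 1 and 2.61-fold in replicate 2.

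Mir18, whose miRNA is known to target genes of TGF-beta signalling, had 33404 counts in replicate 1 and 31771 in replicate 2, at 9007 and 7833 CPM. It made up 11.7% and 10.7% of the cluster. Mir92-1, at the 3′ end of the array, encodes miR-92a, known as a brake on blood vessel growth. It had 19246 counts in replicate 1 and 15092 in replicate 2, at 5189 and 3721 CPM, and formed 6.76% and 5.06% of the cluster. In counted reads, Mir18 thus exceeded Mir92-1 1.74-fold and 2.11-fold in replicates 1 and 2. Reads of exactly miR-92a-3p fit another hairpin too and entered no count. These folds and the shares of Mir92-1 leave such reads out, so they do not rank the 2 mature miRNAs.

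The miR-19 genes were lowest. These miRNAs are the part of the cluster known to drive lymphoma in mice that overexpress Myc in B cells. Mir19a had 341 counts in replicate 1 and 277 in replicate 2, at 91.9 and 68.3 CPM. Mir19b-1 had 136 counts in replicate 1 and 96 in replicate 2, at 36.7 and 23.7 CPM. Their part of the cluster's counts was 0.120% and 0.0929% for Mir19a and 0.0477% and 0.0322% for Mir19b-1 in replicates 1 and 2. Mir20a, which lies between them, exceeded Mir19a 200.3-fold in replicate 1 and 251.2-fold in replicate 2, and Mir19b-1 502.3-fold and 724.8-fold. Reads of exactly miR-19b-3p fit another hairpin too, so the counts and folds of Mir19b-1 leave them out. No member had a read on the opposite strand in either library.

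The order from Mir17 through Mir20a, Mir18, Mir92-1 and Mir19a to Mir19b-1 held in replicates 1 and 2 alike for all 15 pairs of members. The ranges over the libraries overlapped for 0 of the 15 pairs. Both members of a pair were counted in the same 2 libraries, so their values are paired. Even with that pairing ignored, a two-sided exact permutation test of 1 member against another cannot go below p = 0.333. The order therefore rests on the libraries giving it. A read of exactly miR-92a-3p or miR-19b-3p also fits another hairpin and entered no count. The places of Mir92-1 and Mir19b-1 in the order thus rest only on reads that could be told apart. Ratios between members moved between the libraries by 1.04-fold for Mir92-1 over Mir19a to 1.57-fold for Mir17 over Mir19b-1. Levels did not follow the order along the transcript, since Mir19a and Mir19b-1, the lowest, lie on either side of Mir20a, the next highest after Mir17.

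**Figure D2:**
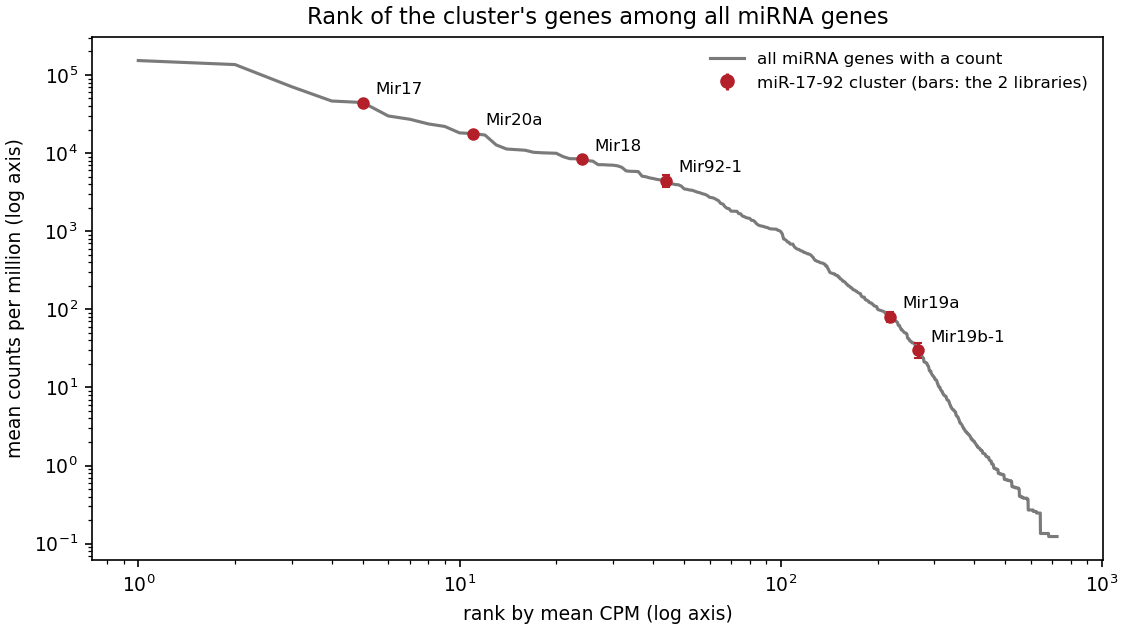
Each miRNA gene with a count is placed by its rank (x axis, log) and its mean CPM over the 2 libraries (y axis, log), with the cluster's genes in red and bars for the 2 libraries. Mir17, Mir20a, Mir18 and Mir92-1 stand at ranks 5, 11, 24 and 44, and Mir19a and Mir19b-1 at ranks 218 and 268.

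Among all genes of the neural tube libraries, the range of Mir17 overlapped neither neighbour in level. It lay below that of Mir335, a gene inside the imprinted Mest at 47242 and 45612 CPM in replicates 1 and 2, and above that of Mir100 at 26798 and 32954 CPM. The other 5 members overlapped in range with the genes next above and next below them. For Mir20a these were Mir30e and Mir322, for Mir18 they were Mir183 and Mir487b, and for Mir92-1 Mir21a and Mir125a. For Mir19a they were Mir7-2 and Mir412, and for Mir19b-1 Mir26a-2 and Mir1198. By distance over log2(CPM + 1) in the 2 libraries, the profiles nearest to those of the members, outside the cluster and its paralogs, were Mir335 for Mir17 (0.10), Mir30e for Mir20a (0.07), Mir744 for Mir18 (0.10), Mir431 for Mir92-1 (0.09), Mir7-2 for Mir19a (0.05) and Mirlet7a-1 for Mir19b-1 (0.16). With 2 libraries this is a likeness in level.

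A count belongs to a hairpin only if its reads align nowhere else, so the sequence shared with other hairpins bears on what each count holds. Mouse has 2 clusters of paralogs: Mir106a, Mir18b, Mir20b, Mir19b-2, Mir92-2 and Mir363 on the X chromosome, and Mir106b, Mir93 and Mir25 on chromosome 5. No other hairpin of the annotation holds the printed miRNA of Mir17, Mir18, Mir19a or Mir20a. The closest match differs from miR-17-5p by U10A (Mir106a) and from miR-18a-5p by A18U and A20U (Mir18b), each token giving first the base of the cluster's miRNA. miR-19b-3p and miR-92a-3p are encoded a second time, letter for letter, by Mir19b-2 and Mir92-2. The hairpins of both pairs are shown with the identical run around the mature sequence in capitals (RefSeq, GRCm38.p6).
Mir19b-1, chr14:115044305-115044391, plus strand: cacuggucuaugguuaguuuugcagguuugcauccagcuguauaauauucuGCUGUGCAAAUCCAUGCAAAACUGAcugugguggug
Mir19b-2, chrX:52741983-52742066, minus strand: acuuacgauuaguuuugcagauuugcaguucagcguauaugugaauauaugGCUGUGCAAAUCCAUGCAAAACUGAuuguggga
Mir92-1, chr14:115044427-115044506, plus strand: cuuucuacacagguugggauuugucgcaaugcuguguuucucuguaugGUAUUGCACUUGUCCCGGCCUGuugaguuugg
Mir92-2, chrX:52741838-52741928, minus strand: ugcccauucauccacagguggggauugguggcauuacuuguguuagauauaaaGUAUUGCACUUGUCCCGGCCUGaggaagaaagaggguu
The run is 25 nt long in the miR-19b pair and 22 nt in the miR-92a pair, and in both it ends with the last base of the mature sequence. The 5p arms differ between the copies. A read of exactly miR-19b-3p or miR-92a-3p therefore fits 2 hairpins, and only reads that run past the shared stretch or come from the other arm can be told apart. The counts do not separate arms or read lengths, so what they hold for these 4 genes, and how many of their reads were left out, was not analysed here.

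Summed over genes by seed, the cluster supplied most of the counted reads of 3 of its 4 seeds. All genes of the RefSeq table with a mature miRNA of the same seed were included, and each had a row. The 7 genes of the miR-17 seed summed to 86079 CPM in replicate 1 and 85483 CPM in replicate 2. Mir17 and Mir20a gave 72.6% and 72.4% of this. The others were Mir93 (10234 ± 54.6 CPM), Mir106b (9012 ± 407 CPM), Mir106a (2541 ± 392 CPM), Mir20b (1801 ± 54.2 CPM) and Mir6383, which had 0 counts in both libraries. Their seeds are the same and they diverge after it, as the sequences show.
miR-93-5p: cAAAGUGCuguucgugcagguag
miR-106b-5p: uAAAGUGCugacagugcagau
miR-106a-5p: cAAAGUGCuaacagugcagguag
miR-20b-5p: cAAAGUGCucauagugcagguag
Mir18 gave 97.4% of the miR-18 seed in replicate 1 and 97.3% in replicate 2, over Mir18b at 228.5 ± 15.5 CPM. Mir19a and Mir19b-1 gave 93.9% and 93.0% of the miR-19 seed, but this seed summed to only 137.0 CPM in replicate 1 and 98.9 CPM in replicate 2 over its 3 genes. Reads of exactly miR-19b-3p, which fit both Mir19b-1 and Mir19b-2, are left out of this sum.

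The miR-92 seed was the exception. Its 7 genes summed to 13987 CPM in replicate 1 and 12215 CPM in replicate 2, of which Mir92-1 gave 37.1% and 30.5%. A read of exactly miR-92a-3p fits both Mir92-1 and Mir92-2 and entered neither count. These shares, and the level of Mir92-1 beside Mir92b, therefore leave out a number of reads that was not analysed here. Mir92b, a gene of chromosome 3 known from neural progenitors, held 5250 and 4708 CPM in replicates 1 and 2, and its range overlapped that of Mir92-1 at 5189 and 3721 CPM. Their mature miRNAs are identical at 19 of 21 aligned bases, and the first differences fall after the seed, with Mir92-1 first in U10C and G21C.
miR-92b-3p: uAUUGCACucgucccggccucc
miR-25-3p: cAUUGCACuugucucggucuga
miR-363-3p: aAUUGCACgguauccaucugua
Mir363 followed at 2267 ± 184 CPM, Mir25 at 720.2 ± 88.9 CPM, Mir92-2 at 407.8 ± 72.2 CPM and Mir32 at 272.1 ± 31.6 CPM. Mir367 had 2 counts in replicate 1 and 0 in replicate 2, where a count of 0 allows up to 3 counts, or 0.740 CPM.

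**Figure D3:**
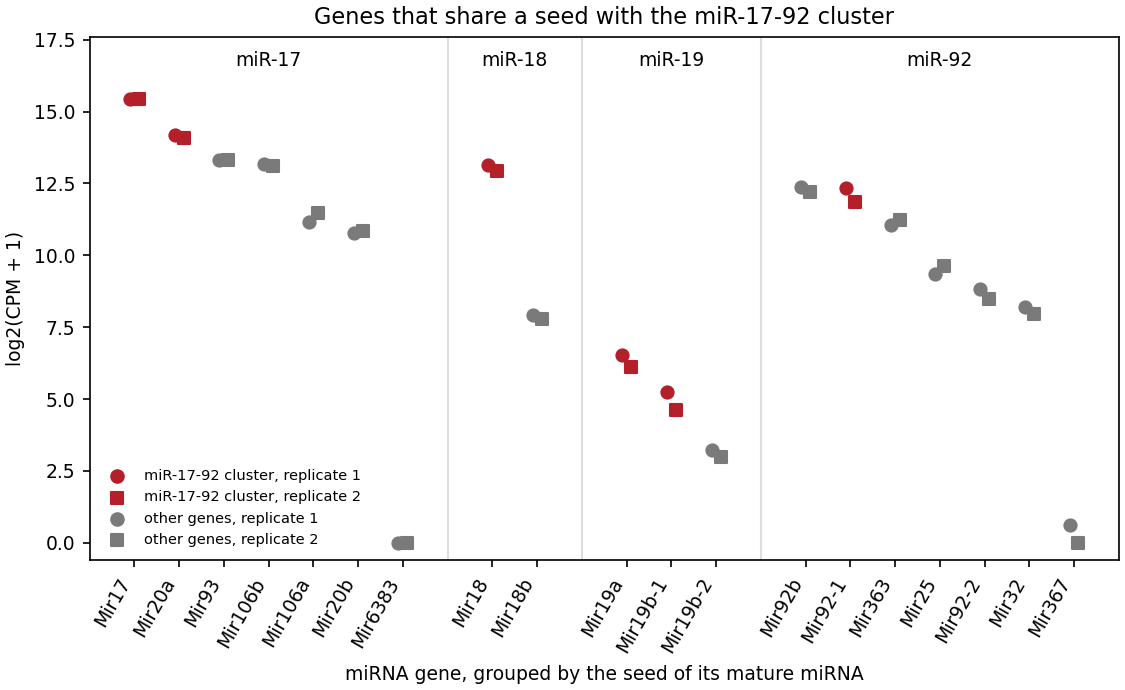
Points give log2(CPM + 1) of every gene whose mature miRNA has 1 of the cluster's 4 seeds, in replicate 1 (circles) and replicate 2 (squares), with the cluster in red and other genes in grey. The cluster's genes lead the miR-17, miR-18 and miR-19 seeds, while Mir92b and Mir92-1 overlap at the head of the miR-92 seed.

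Against its paralogous clusters, the miR-17-92 cluster was the most counted. Its sum of 76804 CPM in replicate 1 and 73552 CPM in replicate 2 exceeded that of the X-linked cluster, at 6871 and 7636 CPM, 11.2-fold and 9.63-fold. It exceeded the Mir106b-25 cluster, at 20230 and 19703 CPM, 3.80-fold in replicate 1 and 3.73-fold in replicate 2. The ranges did not overlap. These sums come from the same 2 libraries too, and the smallest two-sided exact permutation p that ignores this pairing is again 0.333. Gene by gene, the excess over the X-linked copy was uneven. Mir18 exceeded Mir18b 37.6-fold in replicate 1 and 36.0-fold in replicate 2, and Mir17 exceeded Mir106a 19.5-fold and 15.9-fold. Mir92-1 over Mir92-2 stood at 11.3-fold and 10.4-fold, Mir20a over Mir20b at 10.4-fold and 9.33-fold, and Mir19b-1 over Mir19b-2 at 4.39-fold and 3.43-fold. Mir19b-2, with 31 and 28 counts in replicates 1 and 2, was the lowest gene of the X-linked cluster, as Mir19b-1 was of the chromosome 14 cluster. A read of exactly miR-19b-3p or miR-92a-3p fits both of its copies and entered neither count. The folds and ranks of these copies therefore rest only on reads that could be told apart. The fold between Mir17 and Mir20a was 2.39 and 2.61 in replicates 1 and 2, and that between their X-linked copies Mir106a and Mir20b was 1.28 and 1.53.

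The arms of the hairpins fell in the same order as the counts within the cluster, a grouping looked at after the values were seen and not tested. The 3 genes whose printed miRNA lies in the 5p arm, Mir17, Mir20a and Mir18, held 93.1% of the cluster's counts in replicate 1 and 94.8% in replicate 2, between 7833 and 44749 CPM. The 3 genes whose printed miRNA lies in the 3p arm, Mir92-1, Mir19a and Mir19b-1, lay between 23.7 and 5189 CPM. Of these, Mir92-1 and Mir19b-1 share their printed miRNA with another hairpin, so reads of exactly that sequence entered no count. Mir19a and the 5p genes do not share theirs with another annotated hairpin, but the rest of the genome was not searched. For Mir92-1 and Mir19b-1 the arm and the shared sequence cannot be told apart. The X-linked cluster did not show this split, since Mir363 and Mir92-2 (3p) stood above Mir18b (5p). Its 5p genes held 62.1% and 63.9% of its counts. The Mir106b-25 cluster did show it, with its 5p genes Mir106b and Mir93 at 96.8% of its counts in replicate 1 and 96.0% in replicate 2, and its 3p gene Mir25 at 657.4 and 783.1 CPM.

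The 2 pools were then set against each other, replicate 1 over replicate 2, with a two-sided exact binomial test of each gene's counts given the library totals and Benjamini-Hochberg adjustment over all 444 genes whose counts summed to 10 or more. It sets library against library, as there is no second condition, and the threshold was an adjusted p of 0.05. The test covers counting error only: copies of a molecule made by PCR count as separate reads, which makes its p-values too small, and the spread between pools is not part of it. All 6 members passed, beside 53.2% of all genes tested. Among the members, 5 were higher in replicate 1, beside 45.3% of all genes, and Mir17 was higher in replicate 2, beside 7.88%. Direction depended on the scaling, since the log2 ratio of the median gene tested was 0.27. With TMM scaling (edgeR's trimmed mean of M values) 4 of the 6 passed, beside 39.9% of all genes. Then Mir92-1 was higher in replicate 1, beside 18.2% of genes, and Mir17, Mir20a and Mir18 were higher in replicate 2, beside 21.6%. With DESeq2's size factors 4 of the 6 passed, beside 41.0% of genes, and with the 10 most abundant genes left out of the totals 3 passed, beside 41.4%.

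The log2 ratios of the 6 ran from -0.02 to 0.63. The log2 ratio was 0.63 for Mir19b-1 (exact binomial adjusted p = 0.00231), 0.48 for Mir92-1 (exact binomial adjusted p = 6.25e-206) and 0.43 for Mir19a (exact binomial adjusted p = 0.000599). It was 0.20 for Mir18 (exact binomial adjusted p = 5.1e-70), 0.10 for Mir20a (exact binomial adjusted p = 6.59e-39) and -0.02 for Mir17 (exact binomial adjusted p = 1.52e-05). At the depth of Mir17 the test thus passed a difference of 1.02-fold. Taken from the median gene, the ratios were 0.36, 0.21 and 0.16 for Mir19b-1, Mir92-1 and Mir19a, above it, and -0.07, -0.17 and -0.29 for Mir18, Mir20a and Mir17, below it. With TMM scaling Mir19a and Mir19b-1 did not pass, at adjusted p = 0.369 and 0.162 by the same exact binomial test. The median log2 ratio of the 6 was 0.31, beside 0.27 over all genes tested, and their median coefficient of variation between the libraries was 15.4%, beside 17.1%.

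**Figure D4:**
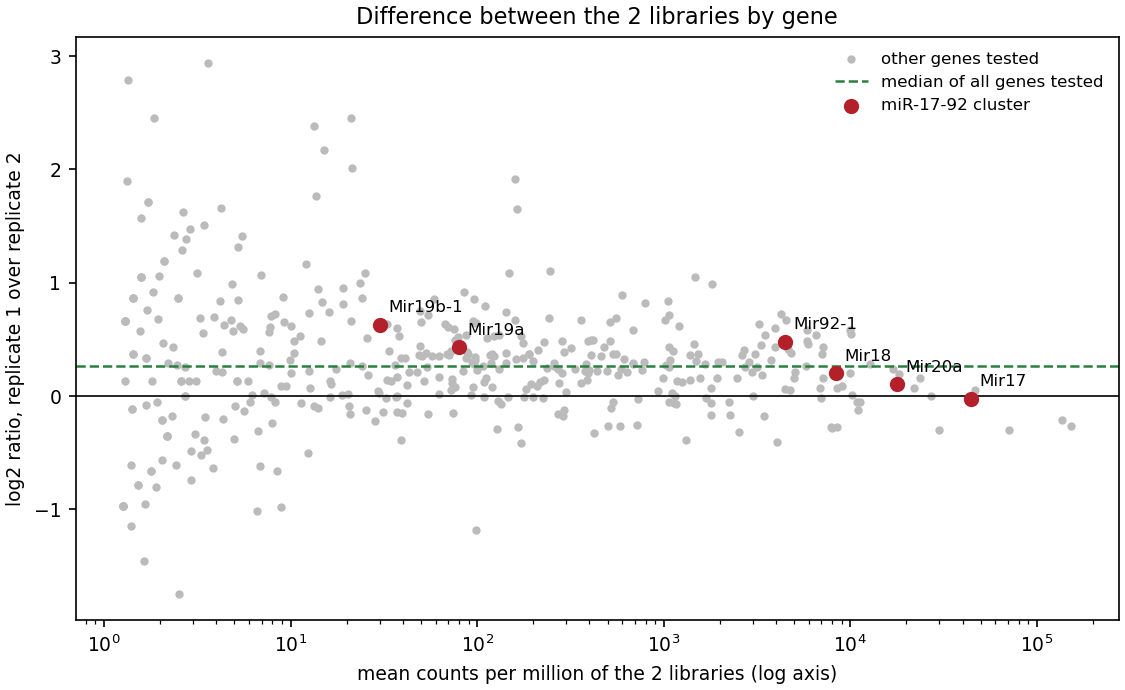
Each of the 444 genes tested is placed by its mean CPM (x axis, log) and its log2 ratio of replicate 1 over replicate 2 (y axis), with the cluster in red and the median of all genes, 0.27, as a dashed line. Mir19b-1, Mir19a and Mir92-1 lie above that line and Mir18, Mir20a and Mir17 below it.

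Genes with the same seed differed from one another in their ratio between the libraries. Among the tested genes of the miR-92 seed the log2 ratio by total counts ran from 0.48 for Mir92-1 and 0.36 for its copy Mir92-2 to -0.17 for Mir363 and -0.25 for Mir25, with Mir32 at 0.24 and Mir92b at 0.16. Mir367, with 2 counts in replicate 1 and 0 in replicate 2, was not tested. Among the tested genes of the miR-17 seed it was 0.10 for Mir20a, 0.09 for Mir106b, 0.01 for Mir93, -0.02 for Mir17, -0.06 for Mir20b and -0.32 for Mir106a. Of these genes of the 2 seeds, only Mir93 did not pass the exact binomial test (adjusted p = 0.413). Of all genes tested, 53.2% passed it. With TMM scaling, by which 39.9% of all genes tested passed, Mir93 passed at a log2 ratio of -0.28 (exact binomial adjusted p = 1.27e-159). Mir92-2 at 0.08 and Mir32 at -0.05 then did not pass (exact binomial adjusted p = 0.270 and 0.601), and Mir20a at -0.19, Mir106b at -0.20 and Mir92b at -0.13 were then lower in replicate 1. The ratio of Mir92-1 to Mir25 was 7.89-fold in replicate 1 and 4.75-fold in replicate 2.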

How the data were processed

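Per the file headers, the authors deposited raw counts of reads for each miRNA gene, based on mm10 and GENCODE M4. The 3 unnamed count columns were read from their values as either strand, own strand and opposite strand. The first equals the sum of the others for every gene, which does not tell those others apart. The larger of them, with 3708662 counts in replicate 1 beside 78467, was read as own strand. The labels do not name it. The aligner, counter and adapter trimming were not given in the sources used here. Own-strand counts were used. Rows naming no gene held 56.5% of reads in replicate 1 and 47.0% in replicate 2 and stayed out of totals and tests. Symbols and coordinates came from GENCODE M21 by gene identifier (1894 of 1973 matched), and miRNA sequences from RefSeq, in which all 6 members matched by symbol. The number of per-sample columns not tied to a sample was 0.

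CPM is the own-strand count per 1000000 own-strand counts. Log2 ratios carry a pseudocount of 0.5 counts. Library sizes were also scaled with edgeR 4.0.16 (TMM) and DESeq2 1.42.0 under R 4.3.3. Hairpins were folded with RNAfold 2.7.2. Other steps used Python 3.11.15 and scipy 1.17.1. The library test was tested on simulated counts that held counting error only, so that check does not cover the spread between pools. The labels name separate pools, and the 2 libraries' counts were not identical. The members, gene lists and tests were chosen with earlier results of these data known. Named genes were the members, their paralogs, genes sharing a seed, and for each member the nearest gene by level profile and its neighbours in mean CPM. Genes of the marker lists were named as a check of the tissue.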

Additional observations from a re-analysis of the deposited data

How the results depend on the processing

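The order of the members by level, the cluster's share and the sums by seed have no test. The calls between libraries turned on the scaling, and some levels and shares moved with the reads or genes counted. Mir18 and Mir20a, higher in replicate 1 by total counts, turned to replicate 2 with TMM scaling (log2 ratios -0.086 and -0.19), DESeq2's size factors (-0.067 and -0.17) and totals that left out the 10 most abundant genes (-0.0059, not past the test, and -0.10). Mir19a and Mir19b-1 kept their direction but no longer passed, at 0.14 and 0.34 with TMM, 0.16 and 0.36 with DESeq2's factors and 0.22 and 0.42 without those 10 genes. Mir17 and Mir92-1 kept direction and call under these scalings, but the size of their log2 ratios changed. Mir17 went from -0.02 by total counts to -0.31 with TMM, -0.29 with DESeq2's factors and -0.23 without those 10 genes. Mir92-1 went from 0.48 by total counts to 0.19, 0.21 and 0.27 in the same order. Members past the test numbered 6 by total counts, beside 53.2% of all genes tested, and 4 with TMM, beside 39.9%. They numbered 4 with DESeq2's factors, beside 41%, and 3 without the 10 genes, beside 41.4%. These scalings shift every gene alike, so distances between members stayed the same. Per 1000000 of all reads, Mir17 stood at 21431, Mir20a at 8549, Mir18 at 4033, Mir92-1 at 2114, Mir19a at 38.1 and Mir19b-1 at 14.2, and the cluster at 3.62% of reads. Without Mir19b-1 and Mir92-1 its share was 7.07%, with Mir17 at 62.8% and Mir20a at 25.2% of the 4 left. In counts of either strand Mir17 had 43575 CPM and the miR-17 seed 84178 CPM. The other results moved by less than 1 SD under these alternatives, or kept their call, and levels from either replicate alone are the values per library given above. A ratio between the libraries cannot be formed with a replicate left out. No paired comparison of conditions was possible because the series has 1 group. The 96 to 341 counts of the miR-19 genes limit how closely their ratios are known, as in Mir19a over Mir19b-1, whose 95% interval in replicate 1 ran from 2.06 to 3.06.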
